A study of Xenopus tropicalis with 18 samples.

Results

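Among 28863 gene identifiers measured in Xenopus tropicalis embryos, 107 were expressed in both head with pharynx and foregut and were much lower in hindgut. They were chosen from the mean level of 3 control libraries per region. The level is the count scaled to the library total, as counts per 1000000 (CPM). A member had at least 1 CPM in control foregut and in head with pharynx, stood at least 4 times above hindgut in each, and had a head with pharynx level above 0.25 and below 4 times its foregut level. Of 14830 genes at or above 1 CPM in both anterior regions, 0.722% met the rule. The regional difference of these genes is therefore a description, and tests are given only between foregut groups.

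Libraries were made from mesoderm and endoderm dissected at Nieuwkoop and Faber stage 33 from wild-type embryos of a Nigerian line, and each of the 18 libraries pooled 8 explants. Control head with pharynx and control hindgut came from embryos kept in 0.1% DMSO. Control foregut came from embryos in 0.1% DMSO that had also received 1 ng of a mismatch morpholino at the 2-cell stage, 500 pg in each cell. Region and injection therefore cannot be told apart between control foregut and the other control regions. Foregut was further taken from embryos given 40 µM cyclopamine or 100 nM BMS493 from stage 15 to stage 33, and from embryos in 0.1% DMSO injected with 1 ng of a morpholino against Rfx6. For the drug groups the labels name the drug alone, so whether these embryos carried DMSO or a mismatch morpholino is not stated. Drug, DMSO and morpholino therefore cannot be told apart where a drug group is compared with control foregut or with Rfx6 morpholino foregut. Each of the 6 groups had 3 libraries. For BMS493 replicates 2 and 3, a second name line in the labels repeats the name of replicate 1, while their titles and column names number them 1 to 3, and these were followed. The labels do not say which clutch or injection day each pool came from. The p-values below therefore reflect how much these libraries varied, which may be technical.

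The foregut and pharynx are the front part of the embryonic gut tube with its surrounding mesoderm, from which the thyroid, lungs, liver, stomach and pancreas form. Hedgehog ligands made by gut endoderm signal to the neighbouring mesoderm, where they relieve the block that Patched places on Smoothened, and cyclopamine inhibits Smoothened. Retinoic acid, made largely in mesoderm, binds nuclear retinoic acid receptors and helps to place organ territories along the gut, and BMS493 is an inverse agonist that holds these receptors in their repressing state. Rfx6 is a transcription factor of the gut endoderm that is needed for endocrine cells of the pancreas.

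The files name genes by identifier only. A table of 28858 RefSeq genes matched 0 of the 28863 identifiers, so no member could be tied to a symbol, a position, a sequence or a known role. For the same reason the tissue labels could not be checked against marker genes, and neither the Rfx6 transcript nor targets of Hedgehog or retinoic acid signalling could be read. Members are therefore described by their values, and the few that are named are the largest changes by a stated rule. In pooled tissue, fewer cells of a type and less RNA per cell cannot be told apart.

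Total counts per library lay between 26006163 and 96814679, so that 1 CPM stood for at least 26 counts. Differences between libraries touch the results below. Replicates 1 and 2 of each treated group lay closer to each other than other replicate pairs did, with a median chi-square per gene of 1.14 to 1.27 against 2.07 to 6.2 in the other pairs, where sampling noise alone gives 0.455. They were not within sampling noise and were kept as separate libraries. This closeness holds for the median gene. Summed over genes, chi-square was highest of all pairs between Rfx6 morpholino replicates 1 and 2 (1.02e+06). It was lowest between BMS493 replicates 1 and 2 (54541). Between cyclopamine replicates 1 and 2 it was 552393, against 364081 between replicates 1 and 3. Replicate 2 of control foregut stood apart from replicates 1 and 3. In it 10 of 107 members (9.35%) were below 0.5 times the mean of the other control foregut libraries, compared with 394 of 15658 genes at or above 1 CPM in control foregut (2.52%).

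Members had moderate levels in the anterior regions. The median member had 7.08 CPM in head with pharynx, 4.92 CPM in control foregut and 0.472 CPM in hindgut, and the highest reached 207 CPM in head with pharynx and 136.8 CPM in control foregut. Per length, which allows genes to be compared, the authors' deposited TPM had a median over members of 5.14 in head with pharynx, 3.93 in control foregut and 0.32 in hindgut, and 1 member exceeded 100 TPM in control foregut. Members were low in hindgut more often than absent from it. Only 2 had no count in any hindgut library, where 3 counts over the group, the limit that a count of 0 allows, correspond to 0.0164 CPM. Between 32 and 39 members were at or above 1 CPM in a hindgut library, and 5 had a mean of at least 10 CPM there, the highest being 33.5 CPM.

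The rule was met with a small margin by many members. The lower of the anterior levels was 4.02 times hindgut in the member nearest the threshold and 3.94 times in the nearest gene outside it. Of the members, 37 lay under 5 times, 71 other genes that met the remaining criteria lay between 3 and 4 times, and 36 members stood at least 10 times above hindgut in both regions. In 105 of 107 members every foregut and head with pharynx library exceeded every hindgut library. In 94 members all 6 anterior libraries reached 1 CPM, and in 78 all 6 reached 4 times the hindgut mean. The rule used these same libraries, so such counts are largely set by the choice of members. No share over all genes was computed beside them.

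Within the class, levels were higher in head with pharynx than in foregut in 77 of 107 members, and the median ratio was 1.81. By this ratio 42 members leaned to the head (at least 2 times higher there), 59 were balanced and 6 leaned to the foregut (ratio of 0.5 or less). In 69 members every head with pharynx library was above every control foregut library, and in 17 every one was below. These counts describe the libraries that chose the members, and region and injection cannot be told apart in them. Shares over all genes were not computed for them, so they are not shown to be particular to members.

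**Figure D1:**
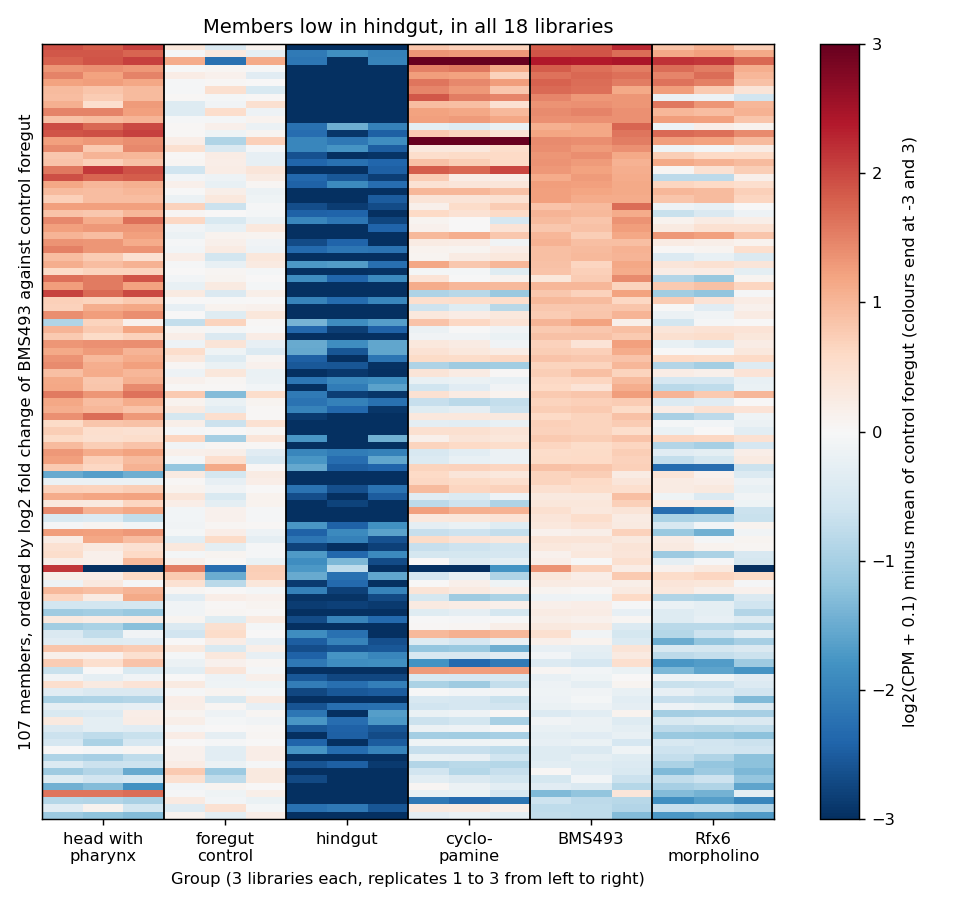
Level of each of the 107 members (rows) in each of the 18 libraries (columns, 6 groups of 3), as log2(CPM + 0.1) minus the mean of control foregut; rows are ordered by the fold change of BMS493 against control foregut. The hindgut columns are low by the rule, the BMS493 columns are above control foregut in most rows, and the cyclopamine and Rfx6 morpholino columns hold rows above and rows below it.

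Together the members held a small part of all RNA, and that part differed between foregut groups. It was 0.14, 0.124 and 0.139% of counts in control foregut replicates 1, 2 and 3, and 0.198, 0.195 and 0.198% in BMS493 foregut. Cyclopamine foregut had 0.191, 0.189 and 0.177%, and Rfx6 morpholino foregut had 0.146, 0.143 and 0.131%. Every BMS493 and every cyclopamine library was above every control foregut library, while Rfx6 morpholino and control libraries overlapped. As means the shares were 0.197 ± 0.00184% with BMS493, 0.186 ± 0.00733% with cyclopamine, 0.14 ± 0.00763% with the Rfx6 morpholino and 0.134 ± 0.00885% in control foregut (SD, n = 3). Head with pharynx had 0.197 ± 0.00552% and hindgut 0.0185 ± 0.000415% (SD, n = 3). An exact two-sided permutation test gave p = 0.1 for BMS493 and for cyclopamine against control foregut, and p = 0.5 for the Rfx6 morpholino. The value of 0.1 is the smallest that 3 against 3 libraries allow. The control foregut libraries also chose the members, so these tests are not independent of that choice. The same exact permutation test between treated groups, whose libraries did not choose the members, gave p = 0.1 for each pair of groups. The share differed by 0.0113 percentage points for BMS493 minus cyclopamine, -0.0569 for the morpholino minus BMS493 and -0.0456 for the morpholino minus cyclopamine.

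The rise of the summed level under cyclopamine rested mainly on 2 members. XBXT10g023339 and XBXT10g003766 together made up 75.1% of the net difference in summed CPM between cyclopamine and control foregut, against 34.9% for the 2 largest contributors under BMS493. Falls of other members lower the net difference, by unlike amounts. Under cyclopamine the pair gave 388 CPM of 728 CPM in rises, beside falls of -211 CPM. Under BMS493 the 2 largest gave 220 CPM of 725 CPM in rises, beside falls of -94.9 CPM. Without this pair the share was 0.143 ± 0.00418% in cyclopamine foregut, 0.185 ± 0.00151% in BMS493 foregut, 0.131 ± 0.00634% in Rfx6 morpholino foregut and 0.13 ± 0.00652% in control foregut (SD, n = 3). Every cyclopamine library was then still above every control foregut library (0.147, 0.143 and 0.138% against 0.135, 0.122 and 0.133%). The pair was singled out after its values were seen, as the largest rises under cyclopamine. The 2 largest contributors under BMS493 were not left out in turn.

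**Figure D2:**
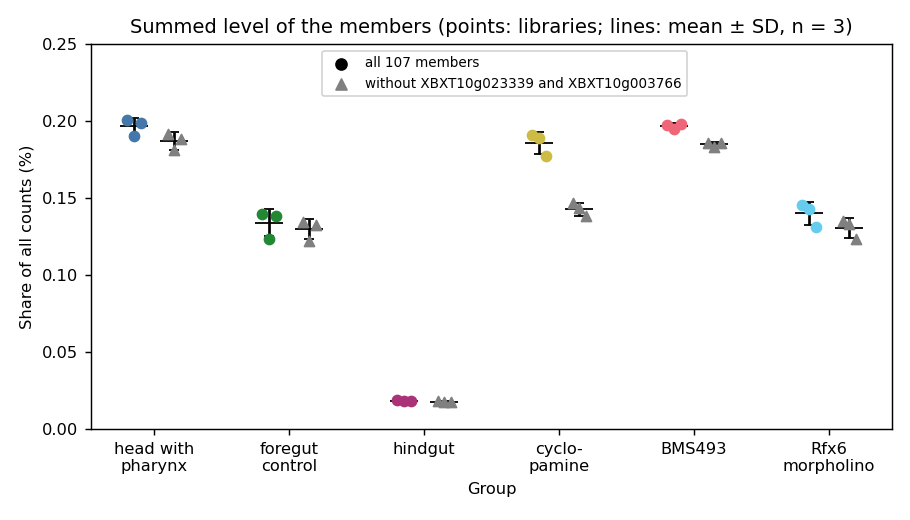
Share of all counts (%, vertical axis) held by the members in each library of the 6 groups: circles are all 107 members, triangles leave out XBXT10g023339 and XBXT10g003766, and lines are mean ± SD (n = 3). BMS493 libraries sit at 0.195 to 0.198%, as high as head with pharynx, and cyclopamine libraries drop from a mean of 0.186 to 0.143% when the pair is left out.

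The BMS493 comparison addresses retinoic acid receptor signalling in foregut, and here the class was broadly higher. Of the 107 members, all of which passed the filter on low counts, 52 rose and 12 fell against control foregut. That is 48.6% higher and 11.2% lower, where 22.3% of all 18542 genes tested were higher and 24.3% lower (adjusted p under 0.05 in the quasi-likelihood test of edgeR, Benjamini-Hochberg over all genes, n = 3 per group). The median log2 fold change of members was 0.51 and that of all genes tested was -0.0027. Of the calls, 22 rises and 1 fall were at least 2-fold, where 6.19% of all genes tested were called higher and 7.03% lower at that size. Summing replicates 1 and 2 of each treated group left 41 rises and 9 falls. Replicate 3 of the BMS493 group stood apart, both among members and over all genes. The median chi-square of members was 4.7 and 4.56 for replicate 3 against replicates 1 and 2, and 0.742 between replicates 1 and 2. Over 16861 genes these values were 4.3, 3.86 and 1.2. Members were chosen partly by their level in the same control foregut libraries, so this comparison is not independent of the choice. How far the choice affects rises or falls was not tested.

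Levels under BMS493 came close to those of head with pharynx. The median member stood at 99.7% of its head with pharynx level in BMS493 foregut, compared with 55.3% in control foregut, 76.2% with cyclopamine and 66.2% with the Rfx6 morpholino. Within 1.5-fold of the head with pharynx level were 81 members in BMS493 foregut, 30 in control foregut, 44 with cyclopamine and 51 with the morpholino. Of the 77 members that were higher in head with pharynx than in control foregut, 26 reached or passed that level under BMS493. The highest mean of all 6 groups was in head with pharynx for 49 members and in BMS493 foregut for 28. These medians and counts compare group means on the CPM scale and were not tested. They were not computed over all genes, so they are not shown to be particular to members. Control foregut carried a mismatch morpholino and head with pharynx did not, and for the drug groups this is not stated. Region, injection and treatment therefore cannot be told apart in these levels.

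The direction under BMS493 went with the lean of a member. Of the 42 members that leaned to the head, 34 rose and 0 fell (median log2 fold change 0.80). Of the 59 balanced members 18 rose and 10 fell (median 0.09), and of the 6 that leaned to the foregut 0 rose and 2 fell (median -0.32). In edgeR at an unadjusted p under 0.05, the falls among head-leaning members and the rises among foregut-leaning members were still 0, and DESeq2 gave 0 for both as well. With replicates 1 and 2 of each treated group summed, 26 head-leaning members rose and 0 fell. Lean and fold change share the control foregut libraries, so part of this order is built into the comparison, and the difference between the classes was not tested. Shares over all genes of the same lean were not computed, here or for the other comparisons. A relation to lean is not particular to members. For BMS493 against cyclopamine, Pearson r was 0.74 over 14350 genes at or above 1 CPM in every group, and 0.22 over members.

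XBXT10g013599 and XBXT10g023339 had the largest rises under BMS493 among members with at least 10 CPM in either group, and XBXT10g008896 and XBXT10g009348 the largest falls. Members named here were picked for large changes in a treated group, so their differences from another treatment share the libraries that picked them. Their changes against control foregut, in the main and the alternative fits, also use libraries that picked them. XBXT10g013599 had 8.91, 11.2 and 7.58 CPM in control foregut replicates 1, 2 and 3 and 34.2, 33.8 and 29.3 CPM with BMS493. Its BMS493 libraries were all above its control libraries and matched head with pharynx, where it had 33.5, 33.6 and 30.6 CPM. The log2 fold change was 1.68 ± 0.12 (SE, adjusted p = 6.48e-07), and it also rose with cyclopamine (22.5 ± 0.437 CPM, SD, log2 fold change 1.24, adjusted p = 2.83e-05) and with the Rfx6 morpholino (20.5 ± 0.776 CPM, SD, log2 fold change 1.11, adjusted p = 6.23e-05).

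XBXT10g023339 had 26.8, 2.52 and 27.0 CPM in control foregut and 65.1, 64.7 and 67.8 CPM with BMS493. Control replicate 2 was about as low as hindgut, where the libraries had 2.64, 0.399 and 2.99 CPM, so the control value differs more between libraries than for any other member named here. The log2 fold change under BMS493 was 1.68 ± 0.61 (SE) with an adjusted p of 0.0497, which passed in 4 of 14 alternative fits and ranged from 5.35e-05 to 0.181.

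XBXT10g008896, which leaned to the foregut, had 15.2, 11.5 and 16.3 CPM in control foregut. With BMS493 it had 8.41, 8.37 and 5.7 CPM, below every control library, and its log2 fold change was -1.05 ± 0.16 (SE, adjusted p = 0.000215). Head with pharynx had 6.62, 6.07 and 5.72 CPM and hindgut 0.0723, 0.104 and 0.103 CPM. The BMS493 mean of 7.49 CPM was nearer to that of head with pharynx (6.13 CPM) than to that of hindgut (0.0932 CPM), which was not tested. XBXT10g009348 had 11.7, 20.8 and 14.5 CPM in control foregut and 8.94, 8.89 and 8.19 CPM with BMS493. All BMS493 libraries were below the control libraries (log2 fold change -0.98 ± 0.17, SE, adjusted p = 0.000473), and control replicate 2 was the highest. In head with pharynx this member had 11.9, 16.3 and 10.3 CPM.

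**Figure D3:**
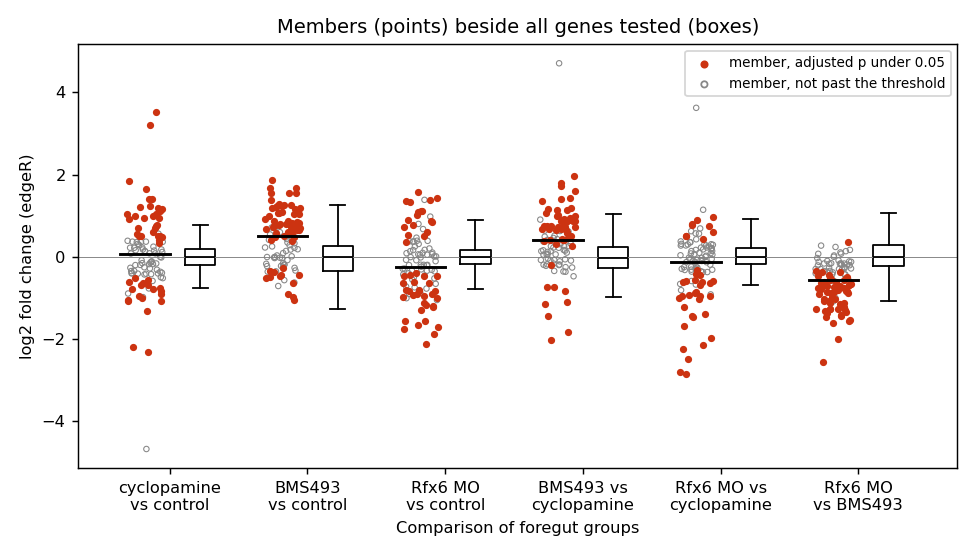
log2 fold change (vertical axis) in 6 comparisons of foregut groups: points are the 107 members, filled where the adjusted p is under 0.05, with a line at their median; boxes are all 18542 genes tested, with median, quartiles and whiskers at the 5th and 95th percentiles. Members lie above the median of all genes in BMS493 against control and against cyclopamine, and below it in Rfx6 morpholino against BMS493, with medians of 0.51, 0.41 and -0.57.

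The cyclopamine comparison addresses Hedgehog signalling, and members differed from control foregut in both directions. Against control foregut 31 of 107 rose (29%) and 19 fell (17.8%), where 10.2% of all genes tested were higher and 9.71% lower, and the median was 0.08. Both directions were thus more frequent than over all genes. The genes tested were not matched to members by level, here or in the other comparisons. Of the 36 members with the highest mean level over all libraries, 16 rose and 7 fell. Of the 36 with the lowest level, 6 rose and 3 fell. The mean level includes the treated libraries, so it shares libraries with the fold change, and part of this split is built in. At least 2-fold were 13 rises and 7 falls, where 1.83% of all genes tested were called higher and 1.57% lower at that size. Leaving control foregut replicate 2 out of the fit gave 32 rises and 27 falls with a median of -0.07, and leaving it out of the choice of members as well gave 30 and 31 with a median of -0.17, so the balance depends on that library. Summing replicates 1 and 2 of each treated group to 1 library left 15 rises and 13 falls.

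The most pronounced cyclopamine rises were in 2 members that leaned to the head. XBXT10g023339 had 229, 238 and 198 CPM with cyclopamine against the 2.52 to 27.0 CPM of control foregut (log2 fold change 3.52 ± 0.64, SE, adjusted p = 0.00662). XBXT10g003766 had 22.6, 10.6 and 32.5 CPM in control foregut and 213, 217 and 192 CPM with cyclopamine (log2 fold change 3.21 ± 0.32, SE, adjusted p = 0.00019). For these members cyclopamine libraries exceeded every library of the other 5 groups, since head with pharynx reached 51.3 and 52.4 CPM, BMS493 foregut 67.8 and 57.9 CPM, and Rfx6 morpholino foregut 55.7 and 47.2 CPM.

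The log2 fold change of BMS493 foregut against cyclopamine foregut was -2.02 ± 0.30 for XBXT10g003766 and -1.84 ± 0.59 for XBXT10g023339 (SE). The pair was named for its rise in the cyclopamine libraries, so these differences are a description. In the lowest control foregut library, replicate 2, both members were low together, at 2.52 and 10.6 CPM.

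XBXT10g007785 and XBXT10g001457 had the largest falls under cyclopamine. XBXT10g007785 had 19.3, 14.96 and 13.9 CPM in control foregut and 3.5, 3.07 and 3.37 CPM with cyclopamine, where no library overlapped (log2 fold change -2.32 ± 0.14, SE, adjusted p = 1.07e-06). With the Rfx6 morpholino it had 4.4, 4.99 and 4.01 CPM (log2 fold change -1.88 ± 0.14, SE, adjusted p = 5.69e-06), and with BMS493 10.3, 9.17 and 8.83 CPM (log2 fold change -0.89 ± 0.14, SE, adjusted p = 0.00021). Every treated library stayed well above hindgut, which had 0.227, 0.174 and 0.241 CPM, and BMS493 libraries were near the 8.71, 8.59 and 8.04 CPM of head with pharynx. In all 3 comparisons the fall held in 14 of 14 alternative fits. These fits reuse libraries that chose the members and picked this one, so they are not independent of that choice.

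XBXT10g001457 had 53.1, 31.6 and 49.6 CPM in control foregut and 19.5, 19.97 and 15.8 CPM with cyclopamine. The groups did not overlap (log2 fold change -1.32 ± 0.21, SE, adjusted p = 0.00211). With BMS493 the values were 36.6, 36.1 and 57.5 CPM, which overlapped control foregut (log2 fold change -0.19 ± 0.21, SE, adjusted p = 0.492). BMS493 foregut was above cyclopamine foregut in every library, by a log2 fold change of 1.13 ± 0.21 (SE, adjusted p = 0.00211). The cyclopamine libraries picked this member, so that difference is a description. The Rfx6 morpholino libraries had 31.4, 30.3 and 32.2 CPM and did not pass the test against control (log2 fold change -0.56 ± 0.21, SE, adjusted p = 0.099). Head with pharynx was highest for this member, at 78.3, 77.8 and 74.1 CPM, and hindgut had 6.81, 7.15 and 7.37 CPM.

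The member with the lowest fitted value under cyclopamine, a log2 fold change of -4.68 ± 1.74 (SE), was not called (adjusted p = 0.0937). It had 10.6, 0.651 and 6.04 CPM in control foregut and 0, 0 and 0.963 CPM with cyclopamine, so its libraries differed widely within each group. In head with pharynx it had 16.1, 0 and 0 CPM, and in hindgut 1.0, 2.07 and 0.31 CPM. It therefore met the head with pharynx side of the rule through 1 library only.

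The Rfx6 morpholino comparison addresses the role of Rfx6 in foregut, and more members were lower than higher. Against control foregut 31 of 107 fell (29%) and 18 rose (16.8%), where 8.99% of all genes tested were lower and 8.25% higher, and the median was -0.24. At least 2-fold were 12 falls and 9 rises, where 1.98% of all genes tested were called lower and 2.41% higher at that size. Members were chosen as high in control foregut, which may favour falls here, and this was not tested. The excess of falls over rises depended on the rule: with members chosen on TMM-scaled levels, which correct for library composition, 16 fell and 17 rose, and with members at least 8 times above hindgut 8 fell and 12 rose. Summing replicates 1 and 2 of each treated group left 17 falls and 14 rises.

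Calls in this comparison are given by lean and by level, with no test between classes, and lean again shares the control foregut libraries with the fold change. Of those that leaned to the head 12 rose and 3 fell, of the balanced 6 rose and 24 fell, and of those that leaned to the foregut 0 rose and 4 of 6 fell (median log2 fold change -1.07). Rises among the foregut-leaning members were also 0 in edgeR at an unadjusted p under 0.05 and in DESeq2, and DESeq2 gave 8 falls among the head-leaning members. Among the 36 members with the highest mean level over all libraries 12 rose and 10 fell. Among the 36 with the lowest level 1 rose and 9 fell. That level includes the treated libraries, so level shares libraries with the fold change, and part of this split is built in. Shares over all genes of the same level were not computed. Replicate 3 of the morpholino group stood apart from replicates 1 and 2 among members too. The median chi-square over members was 4.94 and 3.19 for replicate 3 against replicates 1 and 2, and 0.883 between replicates 1 and 2.

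XBXT10g002310 and XBXT10g014935, both leaning to the head, had the largest rises with the Rfx6 morpholino. XBXT10g002310 had 10.2, 9.19 and 10.7 CPM in control foregut and 32.7, 31.4 and 27.0 CPM with the morpholino, near the 37.3, 38.4 and 42.0 CPM of head with pharynx. Its groups did not overlap (log2 fold change 1.57 ± 0.13, SE, adjusted p = 1.37e-05). It rose less with cyclopamine (15.6 ± 1.85 CPM, SD, log2 fold change 0.60, adjusted p = 0.00772) and by an intermediate amount with BMS493 (25.4 ± 4.53 CPM, SD, log2 fold change 1.21, adjusted p = 1.84e-05). The morpholino group exceeded the cyclopamine group by a log2 fold change of 0.97 ± 0.13 (SE, adjusted p = 0.000325), and the BMS493 group by 0.36 ± 0.13 (SE, adjusted p = 0.0395), the latter in 6 of 14 alternative fits. The morpholino libraries picked this member, so both differences are a description.

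XBXT10g014935 had 8.45, 8.94 and 8.31 CPM in control foregut and 27.7, 25.1 and 18.4 CPM with the morpholino (log2 fold change 1.44 ± 0.16, SE, adjusted p = 0.000118). Cyclopamine gave 24.8, 25.9 and 19.0 CPM (log2 fold change 1.40 ± 0.16, SE, adjusted p = 0.000141) and BMS493 30.4, 27.3 and 25.04 CPM (log2 fold change 1.56 ± 0.16, SE, adjusted p = 1.51e-05). All 9 treated foregut libraries were above the control foregut libraries, at levels around the 21.7, 22.4 and 21.1 CPM of head with pharynx. Hindgut had 1 count for this gene over its 3 libraries. Differences among the treatments were not detected: the log2 fold change was 0.16 ± 0.15 for BMS493 against cyclopamine and 0.04 ± 0.15 for the morpholino against cyclopamine (SE, adjusted p = 0.439 and 0.887).

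XBXT10g007785, given above, and XBXT10g008896 had the largest falls with the morpholino. XBXT10g008896 had 4.26, 4.55 and 4.31 CPM, below every control foregut, head with pharynx and BMS493 library (log2 fold change -1.75 ± 0.17 against control foregut, SE, adjusted p = 2.71e-05). With cyclopamine it had 11.8, 12.3 and 11.6 CPM, which overlapped control foregut and did not pass the test (log2 fold change -0.31 ± 0.16, SE, adjusted p = 0.18). The morpholino group was below the cyclopamine group by a log2 fold change of -1.44 ± 0.16 (SE, adjusted p = 0.000127) and below the BMS493 group by -0.70 ± 0.16 (SE, adjusted p = 0.00536, not called in 1 of 14 alternative fits). The morpholino and BMS493 libraries picked this member, so both differences are a description.

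**Figure D4:**
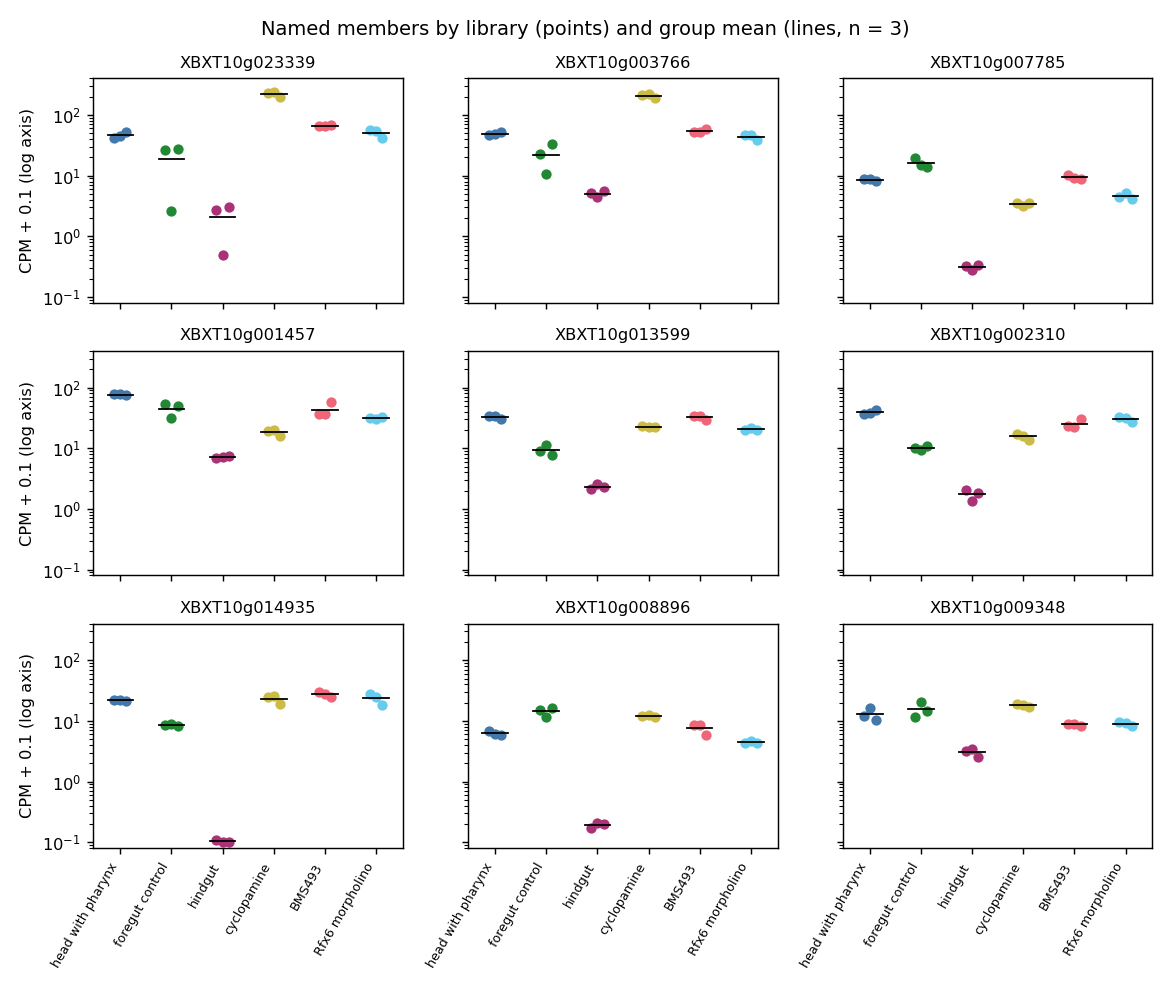
Level of the 9 named members in each library (points, CPM + 0.1 on a log axis) with group means (lines, n = 3) in the 6 groups. XBXT10g023339 and XBXT10g003766 peak with cyclopamine at means of 222 and 207 CPM, XBXT10g007785 is lowest of the foregut groups with cyclopamine at 3.32 CPM, and XBXT10g014935 is above control foregut in all 3 treated groups.

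Comparisons between treated groups use libraries that did not choose the members. Where the morpholino group is compared with a drug group, drug, DMSO and injection cannot be told apart. BMS493 foregut had 47 of 107 members higher than cyclopamine foregut (43.9%) and 9 lower (8.41%), where 17.9% of all genes tested were higher and 20.8% lower, and the median log2 fold change was 0.41. At least 2-fold were 13 higher and 5 lower, where 4.54% of all genes tested were called higher and 4.13% lower at that size. Of the members that leaned to the head 23 of 42 were higher and 4 lower, of the balanced 24 of 59 were higher and 4 lower, and of those that leaned to the foregut 0 of 6 were higher and 1 lower. For these 6, edgeR at an unadjusted p under 0.05 gave 1 higher, as did DESeq2 at an adjusted p under 0.05. Summing replicates 1 and 2 of each treated group left 27 higher and 4 lower. Across members the log2 ratio of head with pharynx to control foregut and the log2 ratio of BMS493 to cyclopamine had a Pearson r of 0.22 and a Spearman rho of 0.30 (n = 107 genes). Over 14350 genes at or above 1 CPM in every group these were 0.74 and 0.72. The rule holds members to a narrow range of the first ratio, genes are not independent replicates, and depth is shared within a library.

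Rfx6 morpholino foregut was below BMS493 foregut in 60 of 107 members (56.1%) and above it in 1 (0.935%), where 17.3% of all genes tested were lower and 19.7% higher. The median log2 fold change was -0.57, and 24 members were at least 2-fold lower, and 0 higher, where 4.35% of all genes tested were called lower and 4.96% higher at that size. At 2-fold, edgeR at an unadjusted p under 0.05 and DESeq2 each gave 0 higher as well. The 1 member that was higher is XBXT10g002310, and with the replicate number as a block 0 were higher and 62 lower. With replicates 1 and 2 of each treated group summed, 34 were lower and 0 higher, and 0 were higher in that edgeR fit at an unadjusted p under 0.05. DESeq2 on the separate libraries gave 62 lower and 1 higher. By lean, 29 of 42 members that leaned to the head were lower, 27 of 59 balanced members and 4 of 6 that leaned to the foregut.

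Against cyclopamine foregut, Rfx6 morpholino foregut had 29 of 107 members lower (27.1%) and 9 higher (8.41%), where 11.1% of all genes tested were lower and 10.2% higher, and the median was -0.13. With replicates 1 and 2 of each treated group summed, 12 were lower and 2 higher. Same-numbered libraries of these groups deviated together, and with the replicate number as a block 28 were lower and 12 higher. At least 2-fold were 12 lower and 0 higher in edgeR, where 1.85% of all genes tested were called lower and 2.23% higher at that size. At an unadjusted p under 0.05, 1 member was at least 2-fold higher in edgeR, and DESeq2 called 1 such member at an adjusted p under 0.05. Calls in this comparison were spread over the balanced members (19 lower and 6 higher of 59), those that leaned to the head (7 and 3 of 42) and those that leaned to the foregut (3 and 0 of 6). In the last of these classes 0 were higher in edgeR at an unadjusted p under 0.05 and 0 in DESeq2.

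Treated foregut did not come down to hindgut levels for most members. At or above 1 CPM and 4 times the hindgut mean were 103 of 107 members in BMS493 foregut, 83 in cyclopamine foregut and 77 in Rfx6 morpholino foregut. Single libraries gave 101 to 103, 81 to 85 and 74 to 85 members. Control foregut libraries taken one by one gave 91 to 100, although their mean meets the rule for all members. At or below the hindgut mean were 2 members with cyclopamine, 0 with BMS493 and 0 with the morpholino. The hindgut libraries also chose the members as low there, so staying above them is favoured by the choice. On TMM-scaled CPM the counts were 100 with BMS493, 80 with cyclopamine, 72 with the morpholino and 94 in control foregut itself. Shares over all genes were not computed, and the counts were not tested.

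Members varied between replicate libraries more than all genes tested, which were not matched to members by level. The median biological coefficient of variation in the fit of the 12 foregut libraries was 0.151 for members and 0.111 for all genes tested. On the CPM scale the median coefficient of variation of members was 17.6% in control foregut and 30.4% in hindgut, where counts were low, and between 8.23% and 13.1% in the other groups. For all genes from 1 CPM up to the highest member of each group it was 10.1% in control foregut and 9.45% in hindgut. In the other groups it was between 5.68% and 7.17%. Effective length, taken from the ratio of counts to TPM in control foregut replicate 1, had a median over 101 members of 0.914 times that of 16128 genes with enough counts, and the quartiles were 0.687 and 1.61 for members and 0.622 and 1.58 for all.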

How the data were processed

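The authors deposited estimated counts per gene, whole in 100% of values, and a second table of TPM values. The submitters' processing notes name RSEM 1.3.0 with Bowtie2, and the labels' protocols name a stranded library kit that selects messenger RNA. No build or annotation is given in the sources used here. Reads of near-identical gene copies may have been split between identifiers, and values of such copies are uncertain. An unnamed row held 0 counts and was left out.

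Members and lists were chosen with earlier results of these data known. Gene lists fixed by symbol could not be applied. The 12 foregut libraries were fitted together in edgeR 4.0.16 (R 4.3.3) with TMM scaling, a minimum count of 10 and group as the only term. The test was the robust quasi-likelihood test, with Benjamini-Hochberg adjustment over all genes tested; a gene was called at an adjusted p under 0.05. SEs were taken from the fold change and its F value. Same-numbered libraries were checked for deviations from their group means that go together, over 14350 genes. Every pair's correlation was above 0.1 between the morpholino and cyclopamine groups (0.327 to 0.349) and between the morpholino and BMS493 groups (0.203 to 0.352). Each cyclopamine library correlated best with the morpholino library of its own number, so same-numbered libraries of these groups deviated together. The labels do not say what they shared, and pairing of embryos is not shown. BMS493 replicate 2 correlated better with another number of the morpholino group (0.245 against 0.203), so the numbers did not go together throughout there. Each other combination of foregut groups had at least 1 pair under 0.1 and was not taken as paired (-0.2 to 0.19). Limits from a count of 0 cover counting error only. Named members are the 2 largest called rises and 2 largest called falls against control foregut, per treatment, among members with at least 10 CPM in either group. Alternatives used DESeq2 1.42.0, other scalings, filters, libraries and rules. Sequences and positions were not used here.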

Additional observations from a re-analysis of the deposited data

How the results depend on the processing

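At 1 CPM a library held at least 26 counts. Members' levels in hindgut had a median of 0.472 CPM. The member at that median, XBXT10g001022, had 76 counts over the hindgut libraries together. Direction by median was kept in every alternative for BMS493 against control foregut and for the 3 comparisons between treated groups. It turned for the Rfx6 morpholino against control foregut with the rule at 8-fold over hindgut (0.0495) and for cyclopamine against control foregut with a floor of 5 CPM (-0.13) and without control foregut replicate 2, where leaving out 1 replicate at a time gave -0.17 to 0.0507. The replicate block gave 29 higher and 19 lower members for cyclopamine, 52 and 13 for BMS493 and 20 and 34 for the Rfx6 morpholino against control foregut, 48 and 10 for BMS493 against cyclopamine, 12 and 28 for the morpholino against cyclopamine, and 0 and 62 for the morpholino against BMS493. Of these counts only the 0 moved by over 1.5 times. Same-numbered libraries correlated best with their own number in 10 of 18 pairs.

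The number of members was 178 at 3-fold over hindgut, 46 at 8-fold and 50 with a floor of 5 CPM, 81 with TMM-scaled CPM (79 shared) and 115 with deposited TPM (85 shared). Counts of members higher and lower follow, in that order. At 3-fold they were 92 higher for BMS493 against control, 88 higher for BMS493 against cyclopamine, 2 and 108 for the morpholino against BMS493, 49 lower for the morpholino against control and 17 and 51 against cyclopamine. At 8-fold they were 28 and 2, 17 and 5, 0 and 25, 8 lower, and 4 and 13, with 20 and 6 for cyclopamine against control. With a floor of 5 CPM they were 26 higher, 24 higher, 28 lower, 17 lower and 13 lower, with 17 higher for cyclopamine. TMM-scaled levels in the rule gave 4 lower for BMS493, 16 lower for the morpholino and 12 lower for cyclopamine against control.

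Calls that were also at least 2-fold numbered 22 and 1 for BMS493, 13 and 7 for cyclopamine and 9 and 12 for the morpholino against control, 13 and 5 for BMS493 against cyclopamine, and 0 and 24 and 0 and 12 for the morpholino against BMS493 and against cyclopamine. With replicates 1 and 2 of treated groups summed, 15 were higher for cyclopamine and 17 lower for the morpholino against control, 27 and 4 for BMS493 against cyclopamine, 0 and 34 for the morpholino against BMS493 and 2 and 12 against cyclopamine. The morpholino against BMS493 gave 0 higher with library totals only and with only the 6 libraries compared, 2 without replicate 3 of the BMS493 and morpholino groups, and 0 to 2 leaving out 1 replicate. Against cyclopamine it gave 15 higher with only the 6 libraries compared, 15 without replicate 3 of both groups and 7 to 18 leaving out 1 replicate. Cyclopamine against control had 15 to 31 lower leaving out 1 replicate. Where 0 members were higher for the morpholino against BMS493, edgeR at an unadjusted p under 0.05 gave 1 with the block and with only the 6 libraries compared, and 0 with library totals only and with replicates summed, while DESeq2 called 1. DESeq2, the filter at 50 and no filter kept the counts over all members, called at any size, within 1.5 times. At 2-fold DESeq2 called 1 member higher for the morpholino against cyclopamine. Of 756 recomputed values of named members 688 kept their side of the threshold, 58 lost and 10 gained a call.

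Members held 0.155% of deposited TPM in head with pharynx, 0.104% in control foregut, 0.0134% in hindgut, 0.144% with cyclopamine, 0.157% with BMS493 and 0.107% with the morpholino. The cause of these shifts was not tested.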
